A study of Mus musculus with 6 samples.

Results

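The 10 genes described here encode the enzymes that turn citrate and acetate into long-chain fatty acids in the liver, with the SREBP-1 gene Srebf1 and the lipogenic factor Thrsp. They were taken as every probe set that the platform annotation names with exactly 1 symbol among Srebf1, Acly, Acss2, Acaca, Fasn, Me1, Scd1, Elovl5, Elovl6 and Thrsp. That gave 20 probe sets of 22626 on the array, and 10 genes of 12393 that have a probe set named with 1 symbol. The arrays hold RNA from the livers of 6 males of KK/H1J, a mouse strain in which obesity and type 2 diabetes arise from many genes. BPD mice (numbers 23, 28 and 36) had received, by tail vein, an adenovirus with the gene of a bifunctional enzyme, 6-phosphofructo-2-kinase and fructose-2,6-bisphosphatase in 1 protein, in a form that lacks the bisphosphatase activity. GFP mice (numbers 22, 29 and 31) had received the Ad-GFP control virus at the same dose. All 6 animals were 12 to 14 weeks old, weighed about 35 g, fed freely, and were followed for 7 days, with 1 array per mouse. The age is that of the age label, and for BPD mouse 28 a second label gives the lower limit as 2 weeks. No liver without virus was compared, and the sources used here do not give the promoter of the constructs or the cells they reached.

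De novo lipogenesis builds fatty acids from the carbon of sugar. Citrate leaves the mitochondrion and is split to acetyl-CoA, which is carboxylated to malonyl-CoA, joined into palmitate, and then desaturated and elongated. SREBP-1 is made as a membrane protein, is escorted to the Golgi by SCAP, is cleaved there, and in its nuclear form activates most of these genes, above all after feeding and under insulin. Fructose 2,6-bisphosphate, which the BPD enzyme makes and cannot break down, stimulates glycolysis and so bears on the sugar carbon that enters this path.

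All 10 genes were lower in BPD livers than in GFP livers. On the scale used for testing, log2 of signal plus a small constant with each array centred on its median, the 10 differences (BPD minus GFP) ran from -3.04 for Thrsp to -0.80 for Acaca. Their median was -1.36, against -0.22 over all 8151 genes tested, and 8 of the 10 were at least 2-fold lower, against 7.26% of all genes. Of the 10 genes, 10 passed as lower and 0 as higher at an adjusted p under 0.05 (limma). Among all genes 22.1% passed as lower and 8.75% as higher. With the scaling as deposited 9 of the 10 passed as lower and 0 as higher (11.1% and 17.2% of all genes), and under quantile normalization 7 and 0 (12.9% and 12.7% of all genes). The deposited signals of the 2 groups did not overlap for 10 of the 10 genes, against 18.2% of all genes with every BPD liver below every GFP liver. Of the 20 probe sets 18 passed the filter on low signal and 18 of these passed as lower and 0 as higher, against 20.3% and 8.28% of all probe sets. The other 2, both of Acly, had signals between 2.29 and 34.5 and were not tested. Nothing states that the mice within a group came from separate litters or batches. The p-values take the 6 animals as independent, which the labels do not settle. Each also rests on a variance drawn in part from other probe sets.

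**Figure D1:**
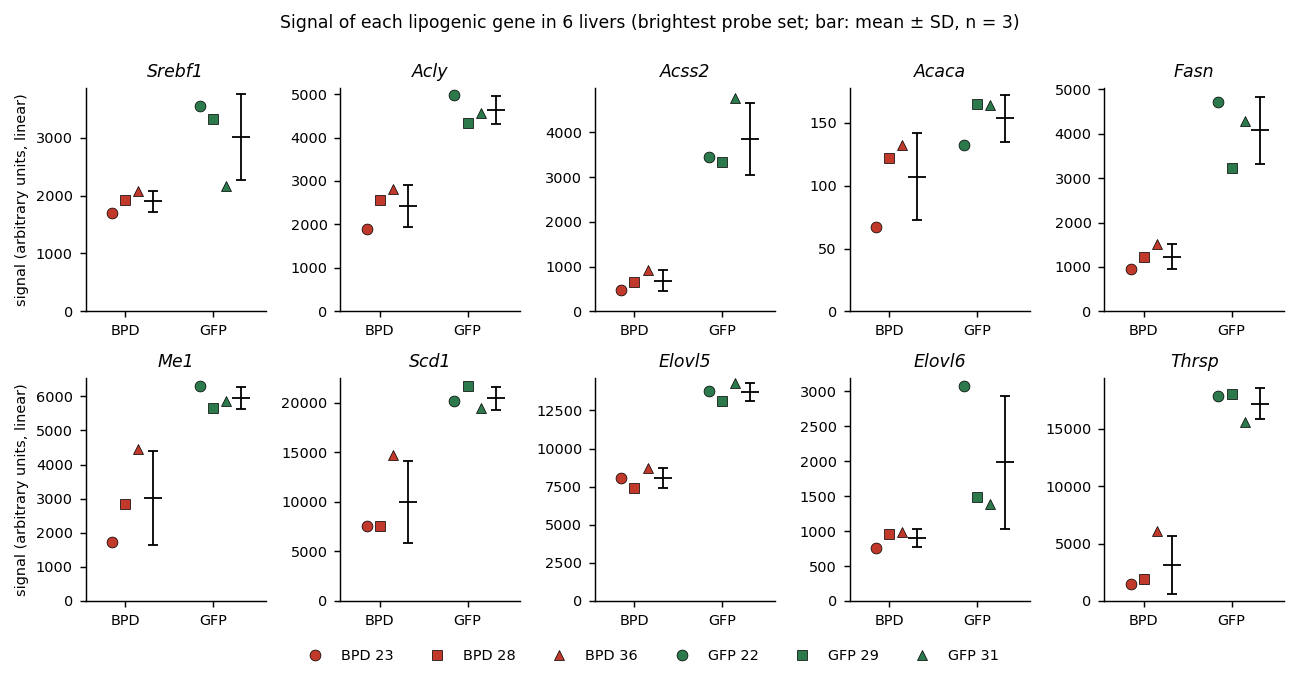
Signal (arbitrary units, linear axis from 0) of the brightest probe set of each gene in 3 BPD and 3 GFP livers, with 1 symbol per mouse and the mean ± SD beside them (n = 3). In each of the 10 panels all BPD livers lie below all GFP livers. The gap is wide for Thrsp, Acss2 and Fasn, small for Srebf1 (2072 against 2159) and almost nothing for Acaca.

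Srebf1 encodes both SREBP-1 forms, and its 1 probe set cannot tell them apart here. Its signal was 1707, 1919 and 2072 in BPD livers 23, 28 and 36, and 3542, 3331 and 2159 in GFP livers 22, 29 and 31. The groups did not overlap, but GFP liver 31 lay just above BPD liver 36. Srebf1 fell by 0.93 ± 0.21 on the log2 scale (SE), or 1.91-fold (limma adjusted p = 0.011). With quantile normalization the difference was -0.53 and did not pass (adjusted p = 0.074).

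Enzymes that make cytosolic acetyl-CoA differed widely in size of change. Acly, ATP citrate lyase, which splits citrate, had signals of 1892, 2571 and 2819 in BPD livers, against 4983, 4345 and 4557 in GFP livers. It fell by 1.25 ± 0.18 (limma adjusted p = 0.0018), and its other tested probe sets fell by 1.41 ± 0.20 and 1.59 ± 0.24. Acss2, the cytosolic synthetase that makes acetyl-CoA from acetate, had signals of 467, 657 and 931 in BPD livers, against 3445, 3335 and 4773 in GFP livers. The highest BPD liver thus stood far below the lowest GFP liver. Acss2 fell by 2.80 ± 0.26, or 6.96-fold (adjusted p = 3.7e-04), and its other probe set fell by 3.11 ± 0.27. Of the 8151 genes 14 had a lower difference than Acss2. The mitochondrial synthetase of the same reaction, Acss1, was too dim to test, with no signal above 98.7 in a BPD liver or above 33.0 in a GFP liver at any of its 3 probe sets. Acss1 was named after its values were seen.

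The steps that build palmitate were lower to different degrees. Acaca, acetyl-CoA carboxylase 1, which makes malonyl-CoA for synthesis, was dim, at 67.3, 122 and 132.01 in BPD livers and 132.13, 165 and 164 in GFP livers. BPD liver 36 and GFP liver 22 were all but equal. Its fall of 0.80 ± 0.24 passed narrowly (adjusted p = 0.036). That call was lost with the deposited scaling (-0.50, adjusted p = 0.198), without the filter (adjusted p = 0.066), and on leaving out any single mouse other than BPD mouse 36 (adjusted p from 0.068 to 0.095). Fasn, fatty acid synthase, had signals of 960, 1216 and 1524 in BPD livers, against 4705, 3235 and 4293 in GFP livers. The gap between the groups exceeded the range within either. Fasn fell by 2.02 ± 0.23, or 4.06-fold (adjusted p = 7.4e-04), and 58 genes had a lower difference.

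Me1, the cytosolic malic enzyme, supplies NADPH for fatty acid synthesis. Its signal was 1741, 2844 and 4468 in BPD livers and 6313, 5665 and 5874 in GFP livers. The GFP livers lay close together and the BPD livers were spread out. Me1 fell by 1.38 ± 0.29 (adjusted p = 0.0083), and with quantile normalization the difference was -0.89 and did not pass (adjusted p = 0.064). Its second probe set fell by 1.30 ± 0.36 (adjusted p = 0.024) although the signals overlapped, at 393, 459 and 904 in BPD livers and 1218, 755 and 1487 in GFP livers. That overlap was the only one among the 18 tested probe sets, on the deposited scale on which 16.5% of all probe sets had every BPD liver below every GFP liver. The mitochondrial isoform Me2 did not pass the filter and was named after its values were seen. Its brighter probe set read 120, 142 and 124 in BPD livers and 36.8, 67.3 and 8.34 in GFP livers, the opposite order to Me1.

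Desaturation and elongation follow the synthase. Scd1, the main hepatic delta-9 desaturase, makes monounsaturated fatty acids. Its brighter probe set read 7525, 7561 and 14714 in BPD livers, against 20195, 21706 and 19442 in GFP livers. The GFP values stood near the top of the scale, since the highest signals on those arrays were 25632, 25699 and 25757. This probe set fell by 1.42 ± 0.25 (adjusted p = 0.0039), and with quantile normalization the difference was -0.79 and did not pass (adjusted p = 0.059). The second Scd1 probe set, which was less bright, read 590, 1071 and 4177 in BPD livers and 10418, 9203 and 7101 in GFP livers. It fell by 2.95 ± 0.57 (adjusted p = 0.0056), also with quantile normalization (-2.53, adjusted p = 0.022). The 2 probe sets thus differ in the size of the Scd1 fall, and no single fold is given for it here.

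Elovl5 elongates polyunsaturated and some monounsaturated chains. It read 8042, 7409 and 8748 in BPD livers and 13753, 13095 and 14277 in GFP livers, with little spread in either group. It fell by 1.07 ± 0.15 (adjusted p = 0.0014), and its other probe set fell by 0.99 ± 0.15. Elovl6, which elongates palmitate to stearate, read 754, 961 and 982 in BPD livers, against 3079, 1484 and 1382 in GFP livers. Here GFP liver 22 was far above the other GFP livers. Elovl6 fell by 1.34 ± 0.31 (adjusted p = 0.012), by 0.93 without GFP mouse 22 (adjusted p = 0.014), and by 1.36 ± 0.30 at its other probe set.

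Thrsp, also called Spot 14, is a small protein that promotes lipogenesis in liver and responds to thyroid hormone and carbohydrate. Its signal was 1439, 1918 and 6081 in BPD livers, against 17917, 18076 and 15649 in GFP livers. BPD liver 36 stood well above the other BPD livers and still far below every GFP liver. Thrsp fell by 3.04 ± 0.44, or 8.21-fold (adjusted p = 0.0017), and by 3.68 without BPD mouse 36. The second probe set read 566, 645 and 2551 in BPD livers and 12697, 11255 and 10155 in GFP livers, and fell by 3.81 ± 0.48, or 14.0-fold (adjusted p = 0.0010).

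**Figure D2:**
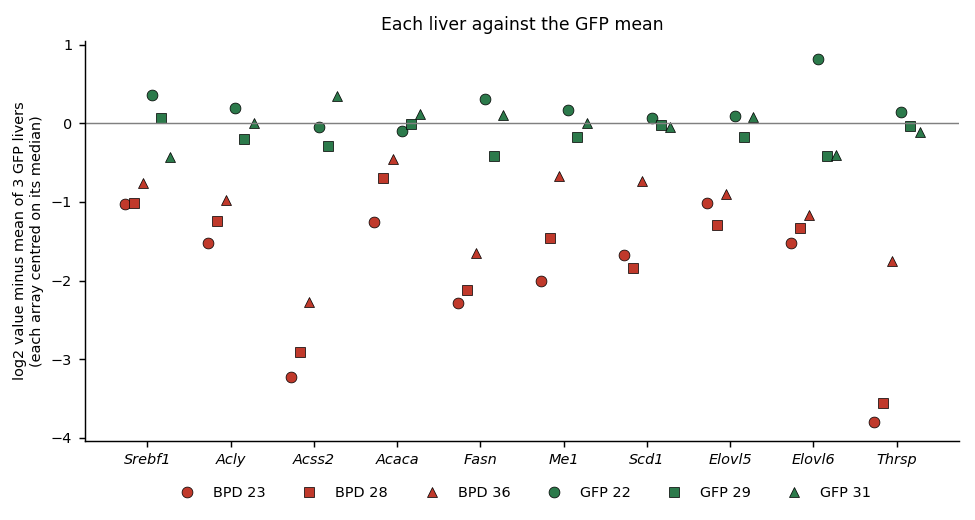
Log2 value of each liver minus the mean of the 3 GFP livers for the brightest probe set of each gene, with each array centred on its median. BPD liver 36 (triangles) is the least reduced of the 3 BPD livers for all 10 genes, most visibly for Thrsp, Scd1 and Me1.

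The BPD livers did not share 1 level. Liver 36 had the highest signal of the 3 for 10 of the 10 genes and liver 23 the lowest for 9 of the 10. Among the 1805 genes that passed as lower, liver 36 had the highest signal of the 3 in 55.8% and liver 23 the lowest in 40.8%. Relative to the GFP mean, the median of the 10 genes was -1.60 in liver 23, -1.40 in liver 28 and -0.94 in liver 36. The range over the 3 BPD livers was 2.05 on the log2 scale for Thrsp, 1.33 for Me1 and 1.10 for Scd1. It was 0.26 for Srebf1, 0.36 for Elovl6 and 0.38 for Elovl5. The range over the 3 GFP livers had another order, with 1.24 for Elovl6 and 0.78 for Srebf1, but 0.26 for Thrsp and 0.12 for Scd1. The Scd1 value comes from the probe set whose GFP signals stood near the top of the scale, and its less bright probe set had a range of 0.62 over GFP livers and 2.77 over BPD livers. Thrsp was thus more uneven among BPD livers than among GFP livers, and Elovl6 and Srebf1 the other way round.

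Markers of other cell types differed between the groups and also set liver 36 apart. Among all genes 8.75% passed as higher and 22.1% as lower. In counts of genes from here on, rose and fell mean passed as higher and passed as lower. All 7 macrophage markers were measured, and 5 rose and 0 fell. Their summed signal was 20305, 19349 and 9693 in BPD livers 23, 28 and 36, and 4032, 8464 and 2772 in GFP livers 22, 29 and 31. The 4 neutrophil markers all rose, with sums of 6229, 7210 and 1507 in BPD livers, against 321, 513 and 276 in GFP livers. Of 6 stellate cell and fibroblast markers 2 rose and 0 fell, with sums of 10642, 9457 and 1827 in BPD livers and 1489, 1117 and 1093 in GFP livers. Of 5 endothelial markers 1 rose and 1 fell, with sums of 2114, 2318 and 1579 in BPD livers and 1536, 1985 and 1300.4 in GFP livers. With the deposited scaling 5 macrophage, 4 neutrophil, 3 stellate and fibroblast and 2 endothelial markers rose and 0 fell (17.2% and 11.1% of all genes). Under quantile normalization 6, 4, 2 and 1 rose and 0 fell (12.7% and 12.9%). The part of these cell types in the lipogenic values was not tested. Fat tissue also expresses these genes, and of 6 adipocyte markers 4 had a probe set, none above the filter. Of these, Adipoq and Lep read at most 36.2 in BPD livers and 19.3 in GFP livers, but Cidea read 291 in GFP liver 22. The part of fat tissue in the lipogenic values was not tested.

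Hepatocyte markers were lower too, so the lipogenic genes were also set against them. All 8 measured markers fell (8 of 8, with 22.1% of all genes lower), by between 0.54 and 1.53 on the log2 scale with a median of -0.80. With the scaling as deposited 5 of the 8 passed as lower, and with quantile normalization 3. Their summed signal was 99594, 91443 and 89286 in BPD livers 23, 28 and 36, and 131890, 142580 and 139175 in GFP livers, so liver 36 did not have the highest sum. The 8 markers were thus bright as a set, on GFP arrays whose highest signals were 25632, 25699 and 25757. Whether signals near the top of the scale understated the falls of these markers was not tested. In whole liver, fewer hepatocytes and less RNA per hepatocyte cannot be told apart. At their brightest probe sets Thrsp, Acss2 and Fasn fell further than every hepatocyte marker, and the other lipogenic genes did not. The less bright Scd1 probe set (-2.95) and the dimmest tested Acly probe set (-1.59) also fell further. With each array centred on the mean of the 8 markers instead, a scaling added after the data were seen, the differences were -2.12 ± 0.45 for Thrsp, -1.88 ± 0.26 for Acss2 and -1.10 ± 0.22 for Fasn (limma adjusted p = 0.0034, 5.3e-04 and 0.0025). These 3 of the 10 genes passed as lower, against 2.74% of all genes. Srebf1 was at -0.011 ± 0.21, Elovl5 at -0.15 ± 0.10 and Acaca at 0.12 ± 0.28 relative to these markers, and none of them passed. Acly (-0.32 ± 0.18), Me1 (-0.46 ± 0.30), Elovl6 (-0.42 ± 0.31) and the brighter Scd1 probe set (-0.49 ± 0.24) did not pass either. The less bright probe set of Scd1 (-2.03 ± 0.59) and the other 2 tested probe sets of Acly (-0.49 ± 0.17 and -0.67 ± 0.26) did, and in all 8 of the 18 probe sets passed, against 2.25% of all.

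**Figure D3:**
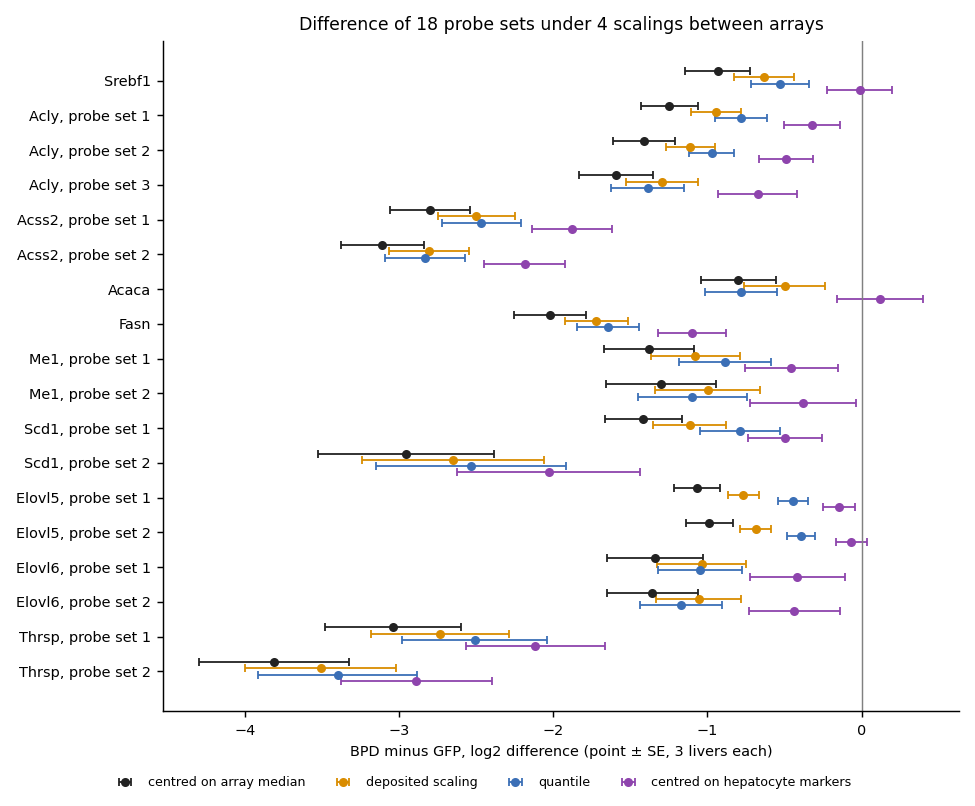
Difference between BPD and GFP livers (log2, point ± SE, 3 livers each) for the 18 tested probe sets, under 4 ways of scaling the arrays. Every point lies below 0 except Acaca relative to hepatocyte markers, and both probe sets of Acss2 and Thrsp stay at -1.88 or lower under all 4 scalings.

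The deposited scaling placed all 18 tested lipogenic probe sets 0.30 higher on the log2 scale than centring did, and scaling to the hepatocyte markers placed them 0.92 higher. Quantile normalization moved them unequally, by 0.018 for Acaca up to 0.63 for the brighter Scd1 probe set. The median of all genes differed by -0.22 between BPD and GFP livers after centring, by 0.081 as deposited, by -0.060 with quantile normalization and by 0.70 relative to the hepatocyte markers. Set against these medians, the median of the 10 genes lay 1.14 lower than that of all genes after centring and 1.14 lower with the deposited scaling, where it was -1.06. With quantile normalization it was -0.84, and its difference from all genes was -0.78. Of all probe sets that passed, 71.0% were lower after centring, 36.7% as deposited and 49.2% with quantile normalization. The median array signal was 174 to 197 in BPD livers and 135 to 157 in GFP livers (exact 2-sided permutation test, p = 0.1, the smallest possible). The ratio of 3' to 5' signal of the Gapdh control averaged -0.36 in BPD and -0.28 in GFP livers on the log2 scale (exact 2-sided permutation test, p = 0.5, smallest possible 0.1). The enzyme carried by the virus was not checked here, since the probe sets named for this family cover only Pfkfb2 and Pfkfb3, and the labels do not give its isoform.

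SREBP-1 depends on a set of regulators, of which 11 of 14 were measured. Of these 5 fell and 0 rose, with 22.1% of all genes lower. Under either the deposited scaling or quantile normalization 1 of the 11 fell, with 11.1% and 12.9% of all genes lower, so the count there was near that of all genes. That 1 was Scap, the escort protein of the SREBPs. Scap read 842, 711 and 967 in BPD livers, against 1718, 1750 and 1664 in GFP livers, and fell by 1.32 ± 0.18 (limma adjusted p = 0.0014). The GFP livers were nearly equal and every BPD liver was below them by a wide margin. Mlxipl, the gene of the glucose-responsive factor ChREBP, read 1495, 1731 and 2344 in BPD livers and 2651, 2887 and 2285 in GFP livers, with overlap at BPD liver 36. It fell by 0.81 ± 0.20 (limma adjusted p = 0.016). That call was lost under the deposited scaling (-0.51), under quantile normalization (-0.42), and when BPD mouse 23, 28 or GFP mouse 22 was left out (adjusted p 0.054, 0.066, 0.056). Mlx, the partner of ChREBP, had a difference of -0.49 ± 0.15 (adjusted p = 0.035), and its second probe set one of 0.11 ± 0.15. The call for Mlx was lost on leaving out any single mouse. Insig2, which holds SCAP in the endoplasmic reticulum, was at -0.42 ± 0.36 and did not pass, and Nr1h3, the gene of the sterol receptor LXR alpha, was at -0.14 ± 0.17. Insig1 was not analysed here.

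Supply of citrate and NADPH was measured by 7 of 12 listed genes, of which 3 fell and 0 rose, with 22.1% of all genes lower and 8.75% higher. The difference was -1.06 ± 0.19 for Idh1, the cytosolic isocitrate dehydrogenase (limma adjusted p = 0.0038), -0.89 ± 0.14 for Aco1, the cytosolic aconitase (adjusted p = 0.0026), and -0.55 ± 0.15 for Tkt, transketolase of the pentose phosphate path (adjusted p = 0.026). Aco1 passed with quantile normalization (adjusted p = 0.048), and Idh1 and Tkt did not (-0.48 and -0.016). The call for Tkt was lost when BPD mouse 28 or 36, or GFP mouse 22 or 31, was left out (adjusted p from 0.052 to 0.098). With the deposited scaling 2 of the 7 fell and 2 rose (11.1% and 17.2% of all genes), and under quantile normalization 1 fell and 2 rose (12.9% and 12.7%). Slc25a1, the citrate carrier, was not analysed here.

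Further enzymes of synthesis, desaturation and elongation were mixed. Of 16 measured among 24 listed, 7 fell and 1 rose, with 22.1% of all genes lower and 8.75% higher. With the deposited scaling 5 fell and 3 rose, against 11.1% and 17.2% of all genes. Under quantile normalization 3 fell and 2 rose, close to the 12.9% and 12.7% of all genes. Acacb, acetyl-CoA carboxylase 2, whose malonyl-CoA restrains fatty acid oxidation at the mitochondrion, read 455, 257 and 411 in BPD livers and 1695, 957 and 1837 in GFP livers. It fell by 2.24 ± 0.33 (adjusted p = 0.0017), against a difference of -0.80 ± 0.24 for Acaca. Elovl3, an elongase of saturated and monounsaturated chains, was at -1.86 ± 0.31 (adjusted p = 0.0028), and Tecr, the reductase of the last step of each elongation cycle, at -1.35 ± 0.18 (adjusted p = 0.0012). The desaturase genes did not share 1 direction. Fads1, the delta-5 desaturase of polyunsaturated fatty acids, fell by 0.90 ± 0.17 (adjusted p = 0.0055). With quantile normalization the Fads1 difference was -0.391 and did not pass (adjusted p = 0.053). Fads2, the delta-6 desaturase, was at -0.39 ± 0.20 and did not pass. Scd2, a delta-9 desaturase with little expression in adult mouse liver, rose by 1.22 ± 0.31 (adjusted p = 0.018). It read 383, 353 and 204 in BPD livers, against 103, 144 and 56.2 in GFP livers, and the rise did not pass when BPD mouse 23 or 28 was left out (adjusted p 0.063 and 0.068). Of the BPD livers, liver 36 had the lowest Scd2 and the highest Scd1 signal. Mid1ip1, a relative of Thrsp, was at -0.37 ± 0.18 and did not pass, against -3.04 ± 0.44 for Thrsp. Pnpla3, a lipid droplet protein controlled by SREBP-1 in liver, was at -0.14 ± 0.24 and dim.

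The kinase AMPK phosphorylates the acetyl-CoA carboxylases and switches them off. Of 7 listed genes, those of its subunits and of its upstream kinase Stk11, 4 were measured. Of these 0 passed, with 22.1% of all genes lower and 8.75% higher. Their differences lay near that of all genes, with Stk11 at -0.29 ± 0.16, Prkag2 at -0.30 ± 0.20 and Prkag1 at -0.23 ± 0.20. Targets of SREBP-2 in sterol synthesis offered a comparison with the other branch of the SREBP system. Of 12 measured among 16 listed, 11 fell and 0 rose, with a median of -1.12 and 22.1% of all genes lower. As deposited 5 fell (11.1% of all genes), and under quantile normalization 6 (12.9%). Fdps, farnesyl diphosphate synthase, read 733, 1172 and 1049 in BPD livers and 4237, 5429 and 5920 in GFP livers, a difference of -2.69 ± 0.19 (limma adjusted p = 1.3e-04). Lss, lanosterol synthase, was at -1.41 ± 0.17 (adjusted p = 8.6e-04) and Stard4, a sterol carrier, at -1.42 ± 0.23 (adjusted p = 0.0029), with -0.85 ± 0.31 and no call at the second Stard4 probe set.

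**Figure D4:**
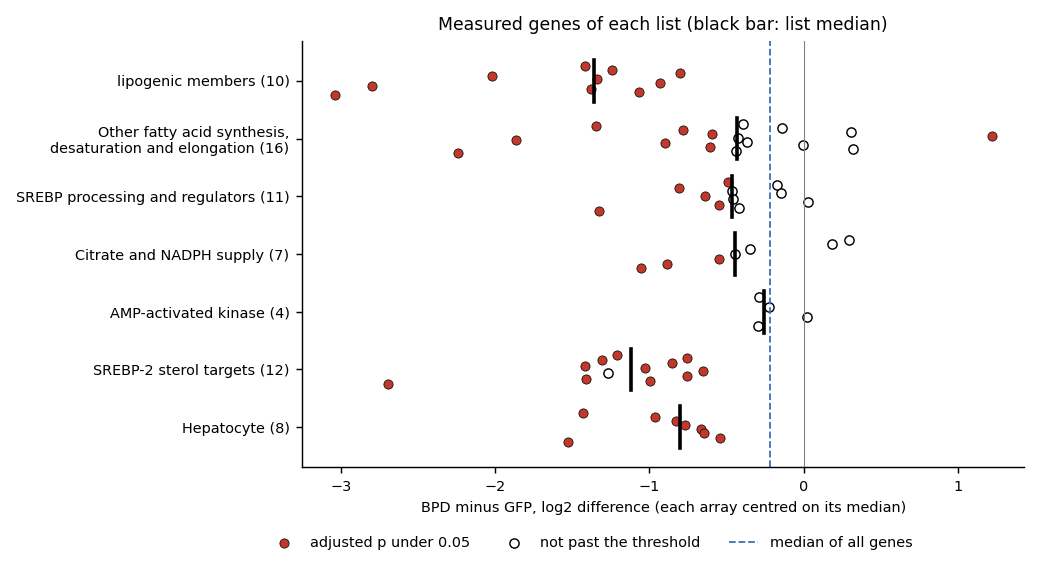
Differences between BPD and GFP livers (log2, each array centred on its median) for the measured genes of each list, with filled points past the threshold, open points not, a black bar at each list's median and a dashed line at the median of all genes, -0.22. The 10 lipogenic genes have a median of -1.36, against -1.12 for the SREBP-2 targets and -0.80 for the hepatocyte markers.

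Over the 5 lists together 50 genes of 73 were measured, 26 fell and 1 rose (22.1% and 8.75% of all genes), and their median was -0.55. As deposited 13 fell and 5 rose (11.1% and 17.2% of all genes), and under quantile normalization 11 fell and 4 rose (12.9% and 12.7%). The genes whose profile over the 6 arrays was nearest to that of Srebf1, by root mean square difference on the log2 scale after subtracting each gene's mean, were Hc (0.056), Dpm1 (0.083), Isoc1 (0.096), Ank (0.109) and Sema4a (0.111). Hc encodes complement component C5, and Dpm1 a subunit of the dolichol phosphate mannose synthase. Each of the 5 also had lower values in GFP liver 31 than in the other GFP livers, as Srebf1 had. None of the other 9 lipogenic genes was among the nearest, and the closest of them, Elovl5 (0.27) and Acly (0.28), ranked 495 and 574 among all genes. Thrsp (1.20) and Acss2 (1.03) were the farthest from Srebf1 among the 10. The measure counts a larger or smaller fall than that of Srebf1 as distance. It therefore cannot show whether a gene followed Srebf1 from liver to liver.

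The sequence before transcript starts of these genes was read from RefSeq (GRCm38.p6), which gave 12 windows of 250 bases for 9 of the 10 genes. Srebf1 has 3 such windows and Me1 2, and for Scd1 none was used. Only 6 of the 12 windows lie before the annotated gene. The other 6 (all 3 of Srebf1, 1 of Me1, and those of Acaca and Fasn) precede a start inside the gene's span. Srebf1, Acly, Acaca and Fasn all lie on chromosome 11. SREBPs bind sterol elements and work together with the factors NF-Y and Sp1, so these motifs were searched on both strands. CCAAT, the NF-Y box, was found in 7 of the 12 windows and in 6 of the 9 genes, against 33.8% of all 32851 windows, and 4 of the 7 are windows inside a gene's span. GGGCGG, the Sp1 box, was found in 5 windows of 4 genes, 2 of them inside a gene's span, against 32.7% of all windows. The E box CACGTG occurred in 1 window, that of Elovl5, against 6.02% of all windows. The sterol element TCACNCCAC occurred in 0 of the 12 windows, against 1.05% of all windows, and an LXR element (AGGTCA, 4 bases of any kind, then AGNNCA) in 0, against 0.149%. A missing match says only that these letters are not in this window. Below are the windows of Thrsp (chr7:97417551-97417800, minus strand) and Acss2 (chr2:155517793-155518042, plus strand), those of the 10 with the largest differences, and of Elovl5 (chr9:77917115-77917364, plus strand), the one with an E box. Each reads 5′ to 3′ along the gene up to the base before the start, and capitals mark the motifs above, on either strand.
Thrsp: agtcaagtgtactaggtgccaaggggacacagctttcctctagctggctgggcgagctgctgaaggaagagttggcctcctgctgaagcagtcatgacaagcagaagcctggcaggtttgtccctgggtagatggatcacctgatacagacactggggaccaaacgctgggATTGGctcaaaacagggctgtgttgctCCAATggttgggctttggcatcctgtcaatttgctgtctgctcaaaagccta
Acss2: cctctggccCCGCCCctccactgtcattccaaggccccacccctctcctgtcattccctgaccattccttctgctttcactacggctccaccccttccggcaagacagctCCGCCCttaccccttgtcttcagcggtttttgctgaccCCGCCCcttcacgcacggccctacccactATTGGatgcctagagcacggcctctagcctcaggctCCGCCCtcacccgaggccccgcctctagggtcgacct
Elovl5: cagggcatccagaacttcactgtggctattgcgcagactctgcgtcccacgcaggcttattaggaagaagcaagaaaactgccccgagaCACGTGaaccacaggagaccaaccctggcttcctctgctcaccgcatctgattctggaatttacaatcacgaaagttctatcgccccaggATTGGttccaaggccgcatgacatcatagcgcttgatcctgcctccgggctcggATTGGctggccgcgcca
The Thrsp window holds an NF-Y box on the opposite strand, from 79 to 75 bases before the start, and another on the gene's own strand, from 52 to 48 bases before it. The Acss2 window holds 4 Sp1 boxes and an NF-Y box, from 73 to 69 bases before the start. The Elovl5 window holds NF-Y boxes from 71 to 67 and from 17 to 13 bases before the start and its E box from 161 to 156.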

How the data were processed

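Liver RNA of 3 BPD and 3 GFP mice was measured on 1 array each. The deposited values are linear signal intensities made with MAS5, per the submitters' processing notes, and average 499.9 on every array once 2% at either end is left out. The sources used here do not give version, target value or filters. Groups and mouse numbers come from the sample titles, and 0 columns were unused.

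Of 22690 probe sets 64 are controls. Of the other 22626, 20380 have 1 gene symbol in the platform annotation, 691 several and 1555 none. Entrez identifiers of 20351 matched the gene table of GRCm38.p6, which changed 0 symbols. Values were taken as log2(signal + 16.3), the constant being 10% of the median, which understates changes of dim probe sets. Array medians differed 1.46-fold, above the 25% tolerated, so each array was centred on its median. Probe sets with a mean above the 40th percentile (signal 98.9), blind to group, were kept, 13575 in all. A gene stands for its brightest kept probe set, 8151 genes. The 2 groups were fitted in limma 3.58.1 under R 4.3.3 (lmFit, eBayes with trend, 2-sided, 4 residual and 5.44 prior degrees of freedom), with Benjamini-Hochberg adjustment over all kept probe sets and a threshold of 0.05. The fit was tested on simulated data. Errors are SE with log2 differences and SD with signals. The number of arrays limits the precision.

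The members and gene lists were chosen with earlier results of these data known. The naming rule took all members, 12 set pathway genes and up to 3 more per pathway list by smallest p. It also took the 5 genes nearest to Srebf1. Acss1 and Me2 fall outside it. Alternatives were the scaling (deposited, quantile), the constant (5% and 20%), the filter (none, 60th percentile), robust eBayes, array weights, the Gapdh ratio as covariate, fewer probe sets, probe set means and each mouse left out.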

Additional observations from a re-analysis of the deposited data

How the results depend on the processing

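No paired analysis was possible because the mouse numbers are not shared between the groups. The member genes that passed as lower numbered 7 to 10 under the alternatives listed under processing, and the member probe sets 14 to 18, with 0 higher. Relative to hepatocyte markers, a scaling added after the data were seen, 3 member genes and 8 member probe sets passed as lower. Thrsp, Acss2 and Fasn passed under all alternatives, that scaling included, and Acly, Elovl5 and Elovl6 under all but that scaling.

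Among all probe sets 2758 were lower and 1124 higher. The lower calls were 1314 with the deposited scaling, 1633 with quantile normalization and 305 relative to hepatocyte markers, and the higher calls were 2265 with the deposited scaling, 698 with the stricter filter and 9460 relative to hepatocyte markers. Leaving out 1 mouse gave 1380 (BPD mouse 28) to 2765 (BPD mouse 36) lower and 604 (BPD mouse 28) to 1206 (BPD mouse 36) higher calls. The lower calls were 1712 without GFP mouse 22 and 1812 without GFP mouse 31, and the higher calls 700 without BPD mouse 23.

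Of the other pathway genes 26 passed as lower and 1 as higher. These counts were 13 and 5 as deposited, 11 and 4 with quantile normalization, and 6 and 23 relative to hepatocyte markers. The lower count was 14 with the Gapdh covariate, and the higher count 3 without the filter and 0 with the stricter filter. Leaving out 1 mouse gave 12 (BPD mouse 28) to 20 (BPD mouse 36) lower, with 14 without GFP mouse 31. It gave 0 (BPD mouse 23 or 28) to 1 higher. The cause was not tested.

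Some values turned to positive. With the deposited scaling these were Nr1h3 (0.16), Pnpla3 (0.16), Prkag1 (0.076), Prkag2 (0.0025) and Stk11 (0.010), and with quantile normalization Nr1h3 (0.051), Prkag1 (0.030), Fads2 (0.0998) and Insig2 (0.025). Relative to hepatocyte markers they were Acaca (0.12), Aco1 (0.035), Fads1 (0.024), Fads2 (0.53), Insig2 (0.50), Mid1ip1 (0.56), Mlx (0.43), Mlxipl (0.12), Nr1h3 (0.78), Pnpla3 (0.78), Prkag1 (0.70), Prkag2 (0.62), Stk11 (0.63) and Tkt (0.37). Dim probe sets such as that of Acaca limit what the arrays can show.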
